A study of Mus musculus with 6 samples.

Results

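A set of 8 transcription factor genes linked to the identity of liver sinusoidal or haemato-endothelial cells were compared between young and aged liver endothelial cells (ECs). The genes were Gata4, Gata6, Maf, Tfec, Meis2, Bcl6b, Lmo2 and Tal1, and they make up 8 of the 24421 gene symbols counted. They were chosen by name for that link and not by a rule on their values, but with earlier results of these data known. RNA came from ECs sorted from the liver of wild-type (WT) C57BL/6J mice as CD31+CD45- cells, that is, cells with the endothelial surface protein CD31 and without the leukocyte protein CD45. The 3 young samples were from 10-week-old animals, and the 3 aged samples from animals of 127, 131 and 136 weeks. The study used female mice only, left out animals with gross tumors or an enlarged liver or spleen, and sorted 50000 cells per sample, so that sinusoidal and large-vessel ECs shared 1 gate. No sample carried a transgene or a treatment, and the only factor that differed by label was age.

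Sinusoidal ECs line the capillaries of the liver and differ from other capillary ECs in their open pores, their lack of a firm basement membrane and their high uptake of circulating waste. GATA4 is known as a switch that keeps liver ECs in this state and away from that of a continuous capillary, and the MAF protein (c-Maf) promotes sinusoidal genes. TFEC belongs to the MiT-TFE family, known for the control of lysosome genes, MEIS2 is a homeobox factor, and BCL6B is a repressor found in ECs. TAL1 and the adaptor LMO2 act in 1 protein complex with a GATA factor, E proteins and LDB1, a complex known from the common development of blood and endothelium.

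Libraries held between 23001556 and 31651817 counts, and 3 counts, the floor used here, stood for 0.0947 to 0.135 CPM (counts relative to library size, scaled by the trimmed mean of M values, TMM), which covers counting error only. The endothelial gene Pecam1, which encodes CD31, had a CPM of 1369 to 1589 in the young and 1366 to 1635 in the aged samples. The list of 12 pan-endothelial genes that holds Pecam1 summed to 16700 to 18570 CPM in the young samples. In the 127-, 131- and 136-week samples it summed to 13490, 15340 and 12000 CPM. Of these 12 genes, 9 had a log2 fold change below 0 and 3 above it. In every aged sample 5 were lower and 0 higher, beside 8.33% and 9.62% of all genes tested. The sinusoidal label of the factor list was then set against a list of 19 sinusoidal marker genes. Their summed CPM was 33800 to 34770 in the young samples and 14370, 24260 and 11480 in the 127-, 131- and 136-week samples, with 15 of the 19 genes lower in every aged sample, as were 8.33% of all genes tested. A list of 20 genes of continuous and large vessels summed to 6526 to 9516 CPM in the young and 10110, 9928 and 11950 CPM in the aged samples. Of these 20 genes, 19 had a log2 fold change above 0 and 1 below it. In every aged sample 7 were higher and 0 lower, beside 9.62% and 8.33% of all genes tested. Among the 7 were Sele (40.8 to 84.4 CPM in young, 270 to 439 CPM in aged ECs) and Selp (285 to 336 and 771 to 837 CPM). The study describes both as raised by inflammation. In bulk RNA, fewer sinusoidal cells and less RNA of the sinusoidal genes per cell cannot be told apart. The Kupffer cell and macrophage list summed to 128 to 142 CPM in the young samples and to 242, 40.8 and 558 CPM in the 127-, 131- and 136-week samples. Of its 12 genes, 8 had a log2 fold change above 0 and 4 below it. In every aged sample 0 were higher and 0 lower. Lyz2 alone had 15.2 to 31.0 CPM in the young samples and 103, 19.4 and 327 CPM in the 127-, 131- and 136-week samples. T and NK cell genes summed to 8.78 to 12.2 CPM in the young samples and to 26.6, 10.4 and 62.3 CPM in the same aged order. The part of the other cells in the results below was not tested. Young replicate 3 and the 127-week sample had 1.29% and 0.960% of their counts on Lars2 and Rn45s, which collect ribosomal RNA reads, and the other 4 libraries 4.68% to 5.53%.

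**Figure D1:**
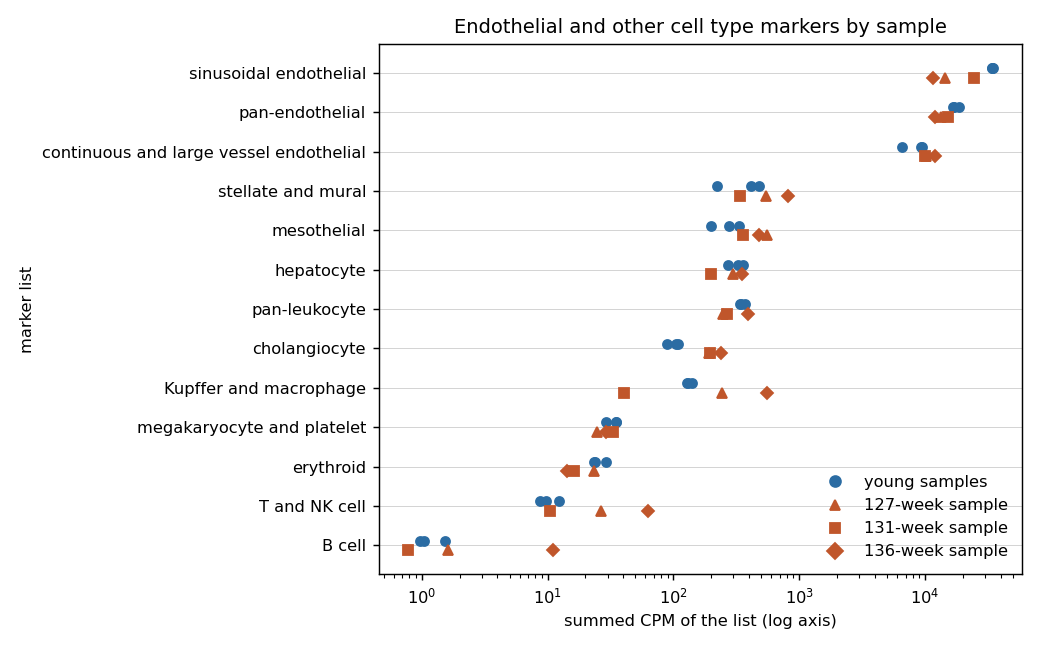
Summed CPM of each marker list (horizontal log axis) for the 3 young samples (circles) and the 127-, 131- and 136-week samples (triangle, square, diamond). The sinusoidal sums of the aged samples lie at 11480 to 24260 CPM, all below the young samples, and the 131-week sample is the nearest to them.

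The levels of the 8 genes were compared with each other as FPKM, which corrects for transcript length. Gata4 had the highest level in young ECs (161.9 ± 4.43 FPKM, SD, n = 3), above 97.6% of all genes in the table. Lmo2 followed with 82.2 ± 15.7 FPKM, and Maf with 38.9 ± 12.8 FPKM. Tfec (23.1 ± 2.78 FPKM), Bcl6b (19.9 ± 6.22 FPKM) and Meis2 (19.3 ± 1.31 FPKM) came next, and neighbours in the order from Maf to Meis2 overlapped in range. Tal1 (3.90 ± 1.00 FPKM) and Gata6 (2.17 ± 0.543 FPKM) were lowest, and their ranges were apart only by 2.80 against 2.79 FPKM. Gata4 above Lmo2, Lmo2 above Maf and Meis2 above Tal1 held in every young sample with no overlap.

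In aged ECs the order of mean FPKM was Gata4 (148.1 ± 51.6), Lmo2 (123.6 ± 30.3), Bcl6b (21.9 ± 5.13), Maf (21.2 ± 8.69), Meis2 (19.4 ± 1.09), Tfec (18.0 ± 7.96), Gata6 (8.54 ± 2.79) and Tal1 (5.09 ± 1.42) (SD, n = 3). Maf moved from the third to the fourth place and Tfec from the fourth to the sixth, while Gata6 stood above Tal1 in each of the 3 aged samples. Of the neighbours in the aged order, Lmo2 and Bcl6b alone had ranges that did not overlap (lowest Lmo2 102.3 FPKM, highest Bcl6b 26.8 FPKM). Gata6 was above 58.8% of all genes in young and above 72.6% in aged ECs.

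**Figure D2:**
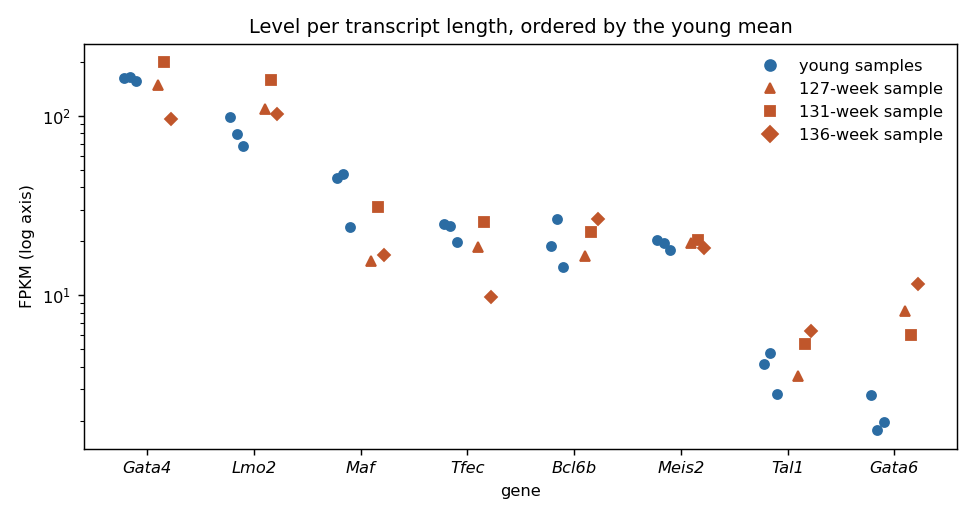
FPKM of each gene on a log axis, ordered from left to right by the young mean, with 3 young samples (circles) and the 3 aged samples (orange, by age). Gata4 and Lmo2 lie apart from the rest in both ages, and Gata6 is the only gene whose 3 aged points (5.97 to 11.5 FPKM) lie above all its young points by more than the young range (1.76 to 2.79 FPKM).

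Positions follow the GENCODE annotation of mm9, the build to which the authors mapped the reads, and each is the whole gene with exons, introns and untranslated regions, since the counts are per gene. Gata4 lies on the minus strand of chromosome 14 (63817759 to 63890529), Gata6 on the plus strand of chromosome 18 (11052508 to 11085633) and Maf on the minus strand of chromosome 8 (118206842 to 118231694). Tfec, named Tcfec in that annotation, lies on the minus strand of chromosome 6 (16783381 to 16848441), and Bcl6b on the minus strand of chromosome 11 (70037630 to 70043300). Meis2 (115688800 to 115891575, minus strand) and Lmo2 (103798143 to 103822035, plus strand) are both on chromosome 2, and Tal1 is on the plus strand of chromosome 4 (114729031 to 114744360). Gata6, Maf and Lmo2 each overlap a gene on the opposite strand, and no source used here states whether counting used the strand. The one of these partners with a row in the count table, the long noncoding RNA 1010001N08Rik beside Gata6, had 1, 1 and 0 counts in the young and 15, 7 and 22 in the 127-, 131- and 136-week samples, against 482 to 887 counts of Gata6 in the aged samples.

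Of the GATA factors, Gata4 differed little between the ages on average and Gata6 was higher in every aged sample. Gata4 had 546, 549 and 512 CPM in young replicates 1, 2 and 3 and 492, 667 and 322 CPM in the 127-, 131- and 136-week samples. The young samples lay close together, and the aged samples stood on both sides of them, the 131-week sample above and the others below. Its mean was 536 ± 20.8 CPM in the young samples and 494 ± 173 CPM in the aged samples (SD, n = 3), with a log2 fold change of -0.12 (standard error 0.258, 95% interval -0.72 to 0.48, adjusted p = 0.896, edgeR quasi-likelihood test).

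Gata6, a GATA factor known from heart, gut and vascular smooth muscle, had 8.64, 5.51 and 5.96 CPM in the young samples. In the 127-, 131- and 136-week samples it had 25.1, 18.8 and 36.0 CPM. All aged values were above all young values, and the 131-week sample was the nearest to them. The mean was 3.97-fold higher in aged (26.6 ± 8.74 CPM) than in young ECs (6.70 ± 1.69 CPM, SD, n = 3 each). In edgeR its log2 fold change was 1.99 (standard error 0.306, 95% interval 1.27 to 2.70), above that of 96.1% of the genes tested. It did not pass the threshold of 0.05 in edgeR (adjusted p = 0.115) and did in DESeq2 (adjusted p = 1.83e-06). Over 19 alternative settings the log2 fold change ran from 1.56 to 2.21 and the adjusted p from 1.83e-06 to 0.567. Besides DESeq2, it passed when the 131-week sample was left out (log2 fold change 2.18, adjusted p = 0.0445 in edgeR). The study lists Gata6 among the genes higher with age from these same samples, so the value is not independent evidence of its direction.

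Markers of other liver cells that could carry GATA factor RNA are given beside this result. The mesothelial genes Msln (1.49 to 3.12 CPM in young, 0.138 to 1.18 CPM in aged ECs) and Upk3b (0.852 to 2.61 and 0.172 to 0.506 CPM) were lower in every aged sample, and Wt1 was at 0 in 5 of the 6 samples. Of that list of 5 genes, 1 was higher in every aged sample, Gpm6a (193 to 326 CPM in young, 354 to 553 CPM in aged ECs), which made up most of its sum of 198 to 330 CPM in the young and 355 to 553 CPM in the aged samples. The list of 12 stellate and mural genes summed to 221 to 476 CPM in the young samples and to 545, 341 and 809 CPM in the 127-, 131- and 136-week samples. Of these aged sums, Reln made up 351, 109 and 496 CPM. Of these 12 genes, 7 had a log2 fold change above 0 and 5 below it. In every aged sample 0 of them were higher and 1 was lower, beside 9.62% and 8.33% of all genes tested. The 1 was Lrat (4.51 to 23.6 CPM in young, 1.67 to 4.18 CPM in aged ECs). The others overlapped, among them Pdgfrb (6.09 to 16.4 and 8.87 to 18.2 CPM). The list of 6 cholangiocyte genes summed to 89.5 to 109 CPM in the young samples and to 193, 194 and 240 CPM in the 127-, 131- and 136-week samples, with all 6 log2 fold changes above 0. Most of it was Spp1 (77.4 to 96.2 CPM in young, 162 to 206 CPM in aged ECs), and Spp1 and Sox9 (1.39 to 2.87 and 3.78 to 9.22 CPM) were higher in every aged sample and called by DESeq2. Krt19, Krt7, Epcam and Cldn7 overlapped between the ages. Among the aged samples the order 131, 127, 136 weeks held for Gata6 from low to high and also for the summed lists of continuous and large vessels, stellate and mural cells, Kupffer cells and macrophages, T and NK cells, B cells, mast cells and basophils, and hepatocytes. In the hepatocyte list most of the sum was Trf (185, 105 and 243 CPM in the 127-, 131- and 136-week samples), while Alb had 42.3, 45.7 and 36.6 CPM. Of its 12 genes, 11 had a log2 fold change below 0 and 1 above it. In the stellate and mural list Reln took the order of Gata6, and Col14a1 did not (92.3, 115 and 120 CPM). The part of these lists in the Gata6 values was not tested.

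Maf, the gene of c-Maf, had the largest mean decrease of the 8 genes, and its ages overlapped. It had 161, 171 and 85.6 CPM in the young samples and 55.6, 113 and 60.9 CPM in the 127-, 131- and 136-week samples. Young replicate 3 was low among the young samples, and the 131-week sample lay above it. Its mean was 139 ± 46.7 CPM in the young samples and 76.5 ± 31.6 CPM in the aged samples (SD, n = 3), a log2 fold change of -0.86 (standard error 0.349, 95% interval -1.68 to -0.049). It did not pass the threshold in edgeR (adjusted p = 0.347) or DESeq2 (adjusted p = 0.190). It stayed below 0 in all 19 alternative settings, between -1.26 and -0.68, and passed in none of them.

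Tfec had 41.4, 40.5 and 32.4 CPM in the young and 30.7, 43.5 and 16.5 CPM in the 127-, 131- and 136-week samples. Its aged samples took the same order as those of Gata4, with the 131-week sample highest and the 136-week sample lowest, and both genes overlapped between the ages. For Tfec the log2 fold change came to -0.33 (standard error 0.325, 95% interval -1.09 to 0.42, adjusted p = 0.715). The summed sinusoidal markers also took this order among the aged samples.

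Meis2 was the steadiest of the 8 genes. It had 98.0, 93.6 and 86.9 CPM in the young and 95.5, 97.6 and 87.1 CPM in the aged samples, and its highest value was 1.13 times its lowest. Its log2 fold change was 0.0089 (standard error 0.125, adjusted p = 0.984), and its 95% interval corresponds to a ratio of aged to young between 0.822 and 1.23. The sign of so small a difference changed in 4 of 19 alternative settings.

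Bcl6b, an endothelial repressor related to BCL6, had 64.2, 89.9 and 48.3 CPM in the young and 56.6, 76.8 and 90.7 CPM in the 127-, 131- and 136-week samples. Samples of both ages covered nearly the same range. Its log2 fold change was 0.15 (standard error 0.264, 95% interval -0.47 to 0.76, adjusted p = 0.872), and its sign changed in 3 of 19 alternative settings.

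Lmo2, the adaptor of the TAL1 complex, had 137, 111 and 91.8 CPM in the young and 151, 222 and 143 CPM in the 127-, 131- and 136-week samples. Every aged value was above every young value, with the 136-week sample close to young replicate 1. The mean was 1.52-fold higher in aged (172 ± 43.2 CPM) than in young ECs (113 ± 22.9 CPM, SD, n = 3 each). The log2 fold change was 0.60 (standard error 0.224, 95% interval 0.078 to 1.12), which did not pass the threshold in edgeR (adjusted p = 0.323) or DESeq2 (adjusted p = 0.212). It stayed above 0 in all 19 alternative settings, between 0.38 and 0.76, the lowest without the 131-week sample.

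Tal1, which encodes the basic helix-loop-helix factor of the same complex, had 17.9, 20.3 and 12.2 CPM in the young and 16.1, 23.2 and 26.9 CPM in the 127-, 131- and 136-week samples. Of the aged samples, the 127-week sample lay within the young range and the others above it. The log2 fold change was 0.40 (standard error 0.269, 95% interval -0.23 to 1.02, adjusted p = 0.576). TAL1 and LMO2 are also made by blood cells. A list of 9 erythroid genes summed to 23.3 to 29.1 CPM in the young and 23.4, 16.3 and 14.2 CPM in the 127-, 131- and 136-week samples, nearly all of it from Epor (10.3 to 18.6 CPM over the 6 samples) and Alas2 (2.76 to 12.1 CPM). Its 4 globin genes were listed at 0 in every sample, which beside these counts does not show that erythroid RNA was absent. The list of 8 megakaryocyte and platelet genes summed to 29.3 to 35.2 CPM in the young and 24.5 to 33.4 CPM in the aged samples. Ptprc, which encodes CD45, had 1.17 to 1.70 CPM in the young and 7.57, 1.28 and 25.6 CPM in the 127-, 131- and 136-week samples. Its highest value and that of Tal1 were both in the 136-week sample, whereas Lmo2 was highest in the 131-week sample, where Ptprc was within the young range.

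**Figure D3:**
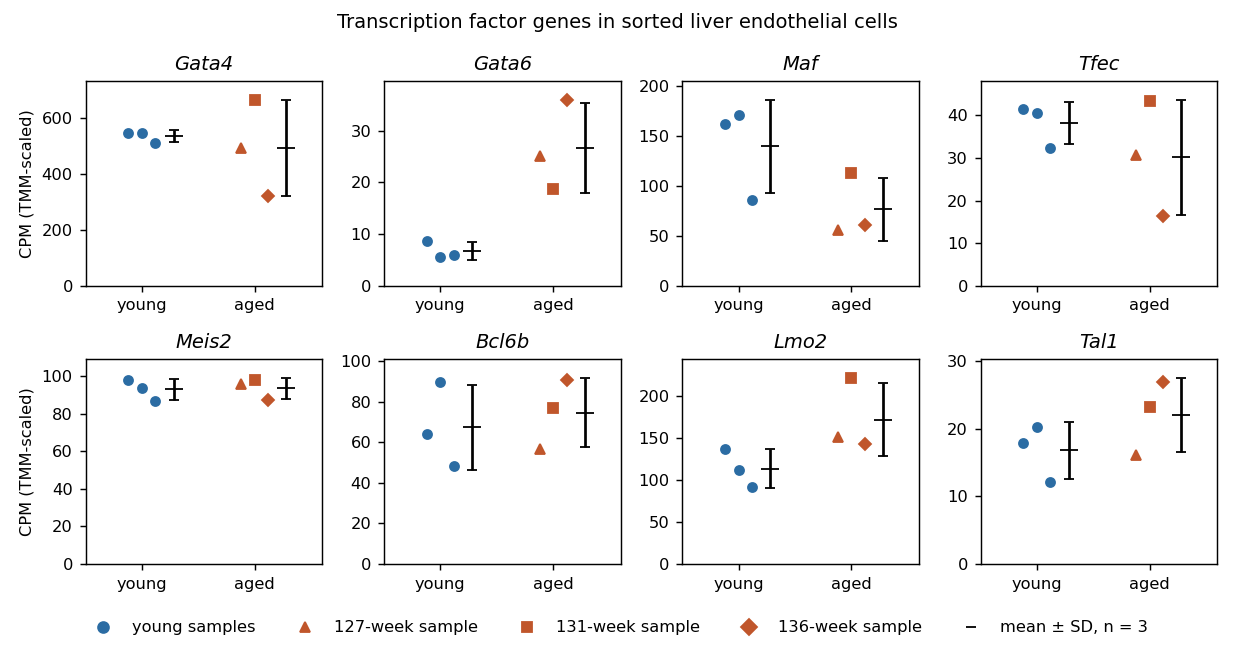
CPM of each of the 8 genes (vertical axis, from 0) in the 3 young samples (circles) and the 3 aged samples (by age), with the mean ± SD beside each group (n = 3). The aged points of Gata6 (18.8 to 36.0 CPM) and Lmo2 (143 to 222 CPM) lie above all young points, and those of the other 6 genes overlap with them.

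Across the list, edgeR called 0 of the 8 genes at an adjusted p below 0.05, as it did 0% of the 14612 genes tested. At an unadjusted p below 0.05 it held 3 of the 8 genes, Gata6 and Lmo2 higher and Maf lower, beside 13.6% of all genes tested. DESeq2 called 1 of the 8, Gata6, beside 4.57% of the 13979 genes to which it gave an adjusted p, and limma-voom called none of them nor any other gene. Every aged CPM was above every young CPM for 2 of the 8 genes, beside 9.62% of all genes tested, and below for 0 of the 8, beside 8.33%. Without the 131-week sample, a count added after seeing the data, both aged values were above all young values for 2 of the 8 genes, beside 18.5% of all genes tested. They were below for 3 of the 8, Gata4, Maf and Tfec, beside 16% of all genes tested. The log2 fold change was above 0 for 5 genes and below 0 for 3, with a median of 0.08, and the median over all genes tested was 0.0094. All 8 genes passed the filter on low counts, the lowest value among them being 5.51 CPM of Gata6 in young replicate 2.

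**Figure D4:**
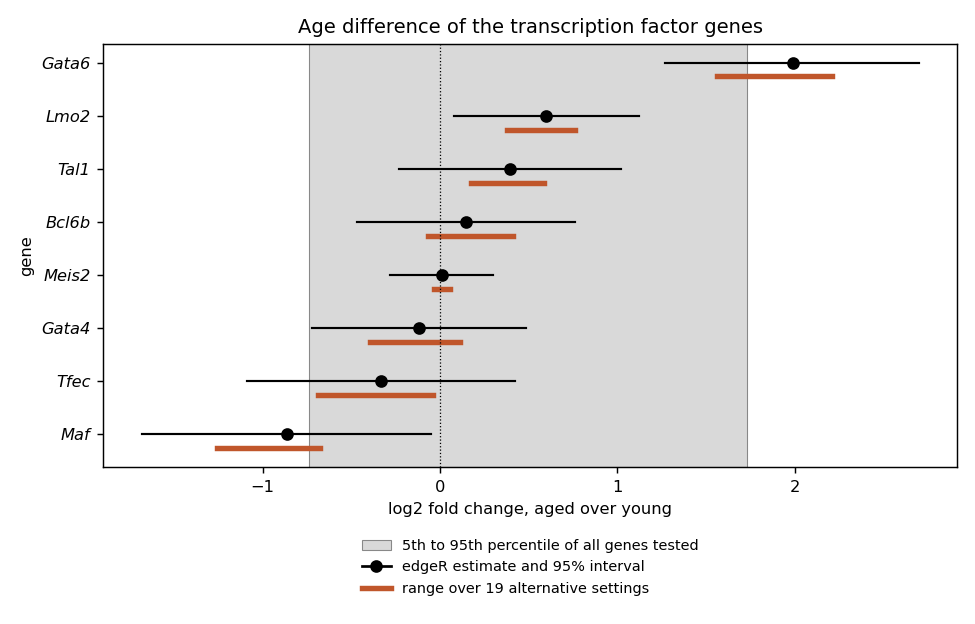
Log2 fold change of aged over young ECs for each gene (points) with its 95% interval from edgeR (black lines) and the range over 19 alternative settings (orange lines). The shaded band spans the central values of all genes tested, from -0.74 to 1.73. Gata6 at 1.99 lies above the band and Maf at -0.86 below it, and the intervals of Gata6, Lmo2 and Maf leave out 0.

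Measured against the young mean, the aged samples did not deviate alike. In the 131-week sample Gata4, Tfec, Bcl6b, Lmo2 and Tal1 were above the young mean (log2 difference 0.32, 0.18, 0.18, 0.96 and 0.45), and Maf was below it by the least of the aged samples (-0.30). In the 136-week sample Gata4, Maf and Tfec were at -0.73, -1.18 and -1.17, and Gata6, Tal1 and Bcl6b at 2.27, 0.65 and 0.42. The 127-week sample had the lowest Maf (-1.31) and stood between the others for Gata4 (-0.12), Gata6 (1.76) and Tfec (-0.30).

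Age differences were also computed within the library clusters set by the Lars2 and Rn45s counts, which hold 2 samples of each age with many such counts and 1 of each with few. The log2 differences were 1.77 and 1.90 for Gata6, 0.52 and 0.71 for Lmo2, 0.37 and 0.38 for Tal1, and 0.13 and 0.23 for Bcl6b in the clusters with many and few such counts. They were -0.99 and -0.61 for Maf, -0.24 and -0.057 for Gata4, and -0.59 and -0.078 for Tfec. Only Meis2 differed in sign between the clusters (-0.054 and 0.13).

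The place of each gene in its family was then followed as its share of the summed FPKM of the family. Gata4 made up 86.9, 85.9 and 84.9% of GATA family FPKM in the young and 78.7, 82.8 and 60.9% in the 127-, 131- and 136-week samples. Every aged share was below every young share, a mean difference of -11.7 percentage points (85.9 ± 1.00% against 74.1 ± 11.6%, SD, n = 3; two-sided exact permutation test, p = 0.1). No smaller p is possible with 3 samples against 3, and 8 such shares were compared. The share of Gata6 was 1.47, 0.918 and 1.06% in the young and 4.31, 2.48 and 7.29% in the aged samples, again with no overlap, a mean difference of 3.54 percentage points (two-sided exact permutation test, p = 0.1). Gata2, the GATA factor of blood and ECs, took 12.9 ± 1.30% in young and 20.2 ± 8.09% in aged ECs and was also higher in every aged sample. Its CPM was 69.2, 79.9 and 81.8 in the young and 98.6, 113 and 147 in the 127-, 131- and 136-week samples (log2 fold change 0.64, standard error 0.179, adjusted p = 0.229). The summed FPKM of the family was 188.5 in young and 195.9 in aged ECs. Gata3, known from T cells, had at most 0.744 CPM in the young samples and 1.93, 0.428 and 10.9 CPM in the aged ones, in the same order as the T and NK cell list.

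Maf made up 38.5, 38.2 and 19.5% of MAF family FPKM in the young and 11.5, 22.1 and 8.35% in the aged samples. The ages overlapped through young replicate 3 and the 131-week sample (mean difference -18.1 percentage points, two-sided exact permutation test, p = 0.2). Of the small MAF genes, whose proteins lack an activation domain, Maff had 4.17 to 5.01 CPM in young and 9.80, 9.65 and 31.0 CPM in aged ECs (log2 fold change 1.86, adjusted p = 0.225 in edgeR and 0.00961 in DESeq2). Mafk had 103 to 172 CPM in young and 206, 170 and 336 CPM in aged ECs, and Mafg 27.9 to 37.2 and 27.0 to 35.2 CPM, each overlapping between the ages.

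Meis2 held 54.4 ± 3.87% of MEIS family FPKM in the young and 54.8 ± 5.30% in the aged samples (SD, n = 3; two-sided exact permutation test, p = 1.0). Around it Meis1 was lower in every aged share (41.6 ± 4.63% and 30.2 ± 4.88%) and Meis3 higher (4.03 ± 1.02% and 14.9 ± 3.90%). Meis3 had 3.05, 2.26 and 1.67 CPM in the young and 11.3, 9.84 and 5.48 CPM in the aged samples, with no overlap (log2 fold change 1.94, adjusted p = 0.165 in edgeR and 4.65e-04 in DESeq2). Bcl6b took 71.1, 70.8 and 67.2% of the sum of Bcl6 and Bcl6b in young and 73.8, 74.4 and 82.6% in aged ECs, higher in every aged sample (mean difference 7.22 percentage points, two-sided exact permutation test, p = 0.1). Bcl6 itself had 22.1 to 35.6 CPM in young and 18.3 to 25.1 CPM in aged ECs.

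Tfec held 38.1 ± 3.08% of MiT-TFE FPKM in young and 31.1 ± 10.6% in aged ECs, beside Tfe3 with 45.3 and 47.3%. Lmo2 held 80.2 ± 1.07% and 84.7 ± 5.79% of LMO family FPKM, and Tal1 76.3 ± 6.47% and 72.9 ± 2.96% of the summed FPKM of Tal1, Tal2 and Lyl1. The ages overlapped for all 3 shares (two-sided exact permutation test, p = 0.4 for each). By mean FPKM, Lmo2 and Tal1 led their families in both ages, and Tfec stood below Tfe3.

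**Figure D5:**
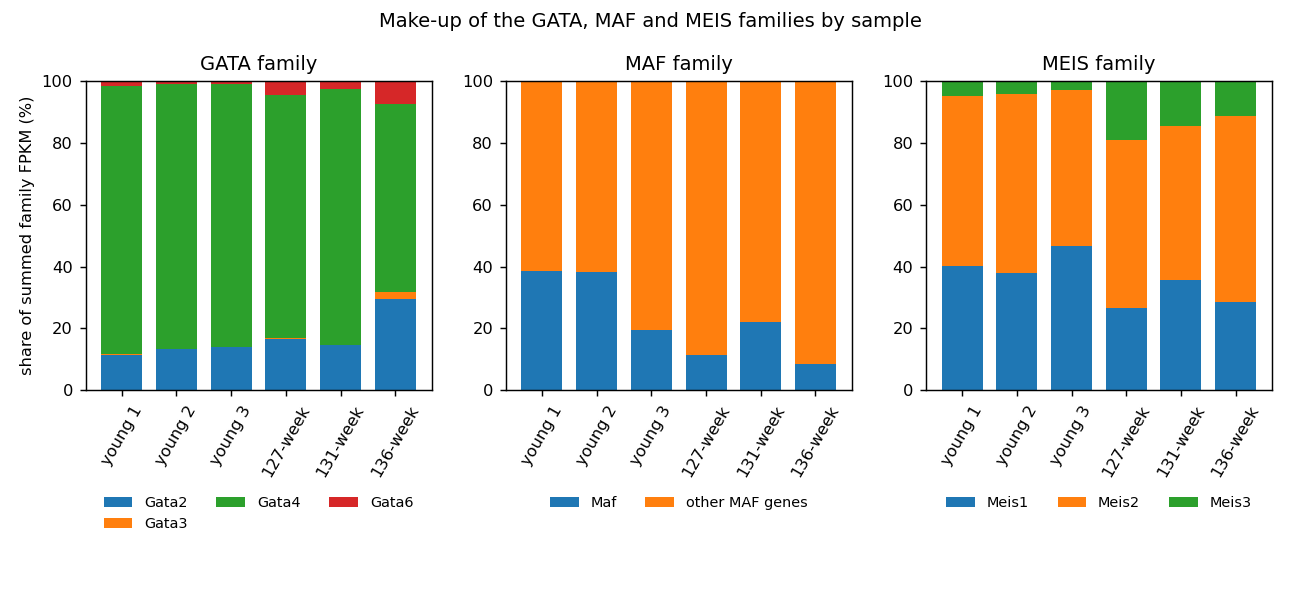
Share of each gene in the summed FPKM of its family (stacked bars, percent, 1 bar per sample) for the GATA, MAF and MEIS families. In the MAF panel all genes but Maf are drawn together, and in the others genes that reached 0.5% in no sample are left out. The Gata4 share is lowest in the 136-week sample (60.9%), the Maf share is low in young replicate 3 (19.5%) and in the aged samples, and the Meis2 share stays between 49.7 and 60.3%.

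Of 26 genes for known partners or close relatives of the 8 factors, 19 had a log2 fold change above 0 and 7 below, with a median of 0.17. At an unadjusted p below 0.05 in edgeR, 9 were higher and 0 lower, beside 9.03% higher and 4.56% lower of all genes tested, and none was called at an adjusted p below 0.05. The cofactors that bind GATA factors directly were both higher in every aged sample. Zfpm1 (FOG1) had 32.9, 24.3 and 38.6 CPM in the young and 70.9, 50.1 and 43.9 CPM in the aged samples (log2 fold change 0.78, standard error 0.242, adjusted p = 0.267). Zfpm2 (FOG2) had 16.8, 18.8 and 15.5 CPM in the young and 28.0, 23.5 and 36.8 CPM in the aged samples (log2 fold change 0.79, standard error 0.209, adjusted p = 0.223), and it was the 1 gene of the list that DESeq2 called (adjusted p = 0.0382).

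Among partners of LMO2 and TAL1, Ldb1, which joins the complex together, had 104.6 to 114.0 CPM in young and 98.1, 120.9 and 88.8 CPM in aged ECs. The E protein genes Tcf3, Tcf4 and Tcf12 had log2 fold changes of 0.070, 0.16 and -0.095, and each overlapped between the ages. Ssbp4, of the family that shields LDB1 from breakdown, had 42.1 to 50.8 CPM in young and 58.3 to 62.7 CPM in aged ECs, while Ssbp3 overlapped (24.4 to 39.2 and 33.8 to 36.2 CPM). Runx1, a blood and endothelial factor, had 0.694 to 1.22 CPM in young and 1.69, 1.98 and 3.37 CPM in aged ECs. Of the genes for partners of MEIS proteins, Pbx3 had 14.6 to 18.3 CPM in young and 19.9 to 22.4 CPM in aged ECs, with no overlap, and Pbx2 and Pknox1 overlapped. The BCL6 corepressor gene Bcor had 20.6 to 25.2 CPM in young and 31.3 to 37.7 CPM in aged ECs (log2 fold change 0.53, standard error 0.162, adjusted p = 0.257).

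Promoter sequence was read as 250 bases before gene starts listed in a RefSeq table. Each was found once on the strand of its gene in the mm9 sequence of its own chromosome, and other chromosomes were not searched for it. The chromosome of Gata6 was left out, so the search does not show whether the RefSeq table covers that gene. That table gave no window under the names Gata4, Maf, Bcl6b or Lmo2. The search gave 4 windows for 3 of the 8 genes, Meis2, Tal1 and Tfec. They were searched on both strands for GATA words (AGATAA or its variant TGATAA, as well as AGATAG or its variant TGATAG) and for the E-boxes CAGATG of TAL1 and also CACGTG of MiT-TFE factors. The MEIS word was TGACAG and the half-site bound by MAF proteins was TGCTGA, and no matches overlapped. The windows shown are those with a GATA word, since 2 of the 8 genes encode GATA factors. Matches stand in capitals, and each window reads 5′ to 3′ on the strand of the gene.
Tal1, chr4:114728781-114729030, plus strand: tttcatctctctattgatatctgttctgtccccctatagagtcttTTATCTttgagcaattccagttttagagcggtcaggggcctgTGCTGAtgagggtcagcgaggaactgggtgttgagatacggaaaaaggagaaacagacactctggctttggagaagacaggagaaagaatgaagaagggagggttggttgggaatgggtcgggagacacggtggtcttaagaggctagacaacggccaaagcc
Tfec, chr6:16848442-16848691, minus strand: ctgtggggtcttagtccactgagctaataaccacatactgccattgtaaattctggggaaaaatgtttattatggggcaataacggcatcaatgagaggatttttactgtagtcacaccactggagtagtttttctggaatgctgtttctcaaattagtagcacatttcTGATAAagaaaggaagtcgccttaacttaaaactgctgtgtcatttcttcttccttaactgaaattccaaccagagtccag

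In the Tal1 window the capitals mark a GATA word, AGATAA read on the opposite strand, at 205 to 200 bases before the start, and a MAF half-site at 163 to 158 bases before it. In the Tfec window they mark the GATA word TGATAA at 81 to 76 bases before the start. A window at another Tal1 start held a MAF half-site and no GATA word, and the Meis2 window held none of the words. Of all 32851 windows of this length in the table, 26.5% hold a GATA word, 16.1% the MAF half-site, 15.9% the MEIS word, 14.4% the TAL1 E-box and 6.02% the MiT-TFE E-box. A match describes the letters only.

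Genes with the most similar pattern were sought for each of the 8 genes among 10216 genes with a mean of at least 5 CPM. Likeness was the root mean square difference between profiles of log2(CPM + 1) centred over the 6 samples, a description without a test. Meis2 was nearest to Kctd10 (0.0168) and Cnot11 (0.0239), and Tal1 to Spin4 (0.0435) and Naa50 (0.0567). Gata4 was nearest to Zdhhc18 (0.0854) and Rad9a (0.0874), and Tfec to Camk1 (0.0853) and Ptgs1 (0.0905), all of them lowest in the 136-week sample. Bcl6b was nearest to Mier3 (0.0860) and Styx (0.0918), and Lmo2 to Pla2g16 (0.126) and Nudt12 (0.127). Maf was nearest to the chemokine scavenger receptor gene Ackr4 (0.123), with 98.0, 109 and 55.1 CPM in the young and 34.5, 88.9 and 41.3 CPM in the aged samples, and to Neu3 (0.173). The nearest match of Gata6 was farther off than the nearest match of each of the other 7 genes. It was the amino acid transporter gene Slc1a5 (0.163), with 13.7, 9.66 and 11.4 CPM in the young and 31.5, 31.3 and 60.5 CPM in the aged samples. The second was Cytl1 (0.199). The profiles were not scaled for spread, so a gene that varies more can lie farther from its matches. The highest value of Gata6 was 6.54 times its lowest, the widest range of the 8 genes.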

How the data were processed

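RNA from CD31+CD45- liver ECs of 3 young and 3 aged WT C57BL/6J samples was read as 75-base single-end reads (TruSeq v2 libraries). Per the labels and the study's methods, the authors used CASAVA 1.8.2, TopHat2 2.1.0 and mm9, and deposited raw counts per gene symbol and FPKM values from Cuffnorm 2.2.1. The counting program, annotation and use of strand are not given in the sources used here. Columns were matched to samples by name.

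Genes that reached 0.5 CPM in 1 or more samples (14612 of 24421) were normalized by TMM and compared with edgeR 4.0.16 (glmQLFit, glmQLFTest, R 4.3.3) over all 6 samples, without covariates. Adjusted p-values are Benjamini-Hochberg over all genes tested, with a threshold of 0.05. DESeq2 1.42.0, limma 3.58.1 (voom and log2 FPKM), other normalizations and filters, and the removal of each sample were alternatives. FPKM was used to compare levels between genes and for family shares, with two-sided exact permutation tests. The scripts were tested on simulated data. No pair of replicates was alike within counting noise (smallest chi-square per degree of freedom 20.2).

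The 8 genes and the lists of families, partners, markers and sequence words were chosen with earlier results of these data known, so no list was tested as a set. Named genes are the 8 genes, their families, partners and markers where described, and the 2 nearest in pattern to each. The promoter search left out the chromosome of Gata6, and no window was read for that gene.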

Additional observations from a re-analysis of the deposited data

How the results depend on the processing

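No gene was called by edgeR at an adjusted p below 0.05. The count was 6 without a filter on low counts, 2 with a term for the library cluster, 11 at an adjusted p below 0.1, 15 with limma-voom and sample quality weights, and 639 with DESeq2. Leaving out 1 sample gave 0 to 123 genes, the 123 without the 131-week sample. Of the 8 transcription factor genes 0 were called, against 1 with DESeq2 and 0 to 1 when a sample was left out, the 1 being Gata6 without the 131-week sample (adjusted p = 0.0445). The count of the 8 genes without overlap was 2, and 2 to 5 when a sample was left out, a check added after seeing the data. The 5, without the 131-week sample, were Gata6 and Lmo2 higher and Gata4, Maf and Tfec lower, in a comparison where 18.5% of all genes tested were higher and 16% lower in this way. Signs changed for 3 genes whose log2 fold change was near 0. With sample quality weights Meis2 was at -0.018 and Bcl6b at -0.066. Leaving out 1 sample gave -0.036 to 0.059 for Meis2, with values of -0.0033 without the 127-week and -0.024 without the 131-week sample. It gave -0.044 to 0.41 for Bcl6b, with -0.014 without the 136-week sample, and -0.40 to 0.11 for Gata4, which turned positive without the 136-week sample. The cause was not tested. Maf, Tfec, Lmo2, Tal1 and Gata6 kept their direction in all 19 alternatives, and no family share changed sign with counts in place of FPKM. No paired analysis was made, because the sources used here give no pairing of young with aged samples.

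With 3 samples against 3, exact permutation tests cannot give a p below 0.1. Whether a sample holds 1 animal is not stated in the sources used here, so p-values measure the spread between these samples. Depth limits Gata6 the most (122 to 887 counts).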
